A study of Homo sapiens with 8 samples.

Results

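Keratin expression was followed for 10 genes across the 8 RNA-seq libraries of the study: 6 usually assigned to basal cells (KRT5, KRT14, KRT6A, KRT17, KRT15 and KRT16) and 4 usually assigned to luminal cells (KRT7, KRT8, KRT18 and KRT19). They were chosen by gene symbol, and all 10 were among the 13771 genes of the expression table, so every one of them also passed its filter on low values. The libraries came from MCF10A, an immortalised line of normal human breast epithelium, and from MCF10 DCIS.COM (hereafter DCIS.COM), a line of the same lineage that models ductal carcinoma in situ. Both lines carried an integrated lentiviral construct, pCDH, either empty or encoding the long noncoding RNA HOTAIR, with 2 libraries in each of the 4 groups, and all cells were selected with 10 µg/mL puromycin. Both lines were kept in 5% horse serum, but the MCF10A medium also held 20 ng/mL epidermal growth factor, 100 µg/mL hydrocortisone, 10 µg/mL insulin and 100 ng/mL cholera toxin. Cell line and medium therefore cannot be told apart in any comparison of the lines. No label says that the 2 libraries of a group came from separate cultures or separate transductions, so p-values measure only the spread between these libraries, which may be technical.

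Keratins are the intermediate filament proteins of epithelial cells. A filament is built from pairs of an acidic type I and a basic type II keratin, and each layer of an epithelium is recognised by the pair it makes. In the mammary gland, KRT5 (type II) with KRT14 (type I) marks basal and myoepithelial cells, while KRT8 (type II) with KRT18 (type I) marks luminal cells, joined there by KRT7 (type II) and KRT19 (type I). KRT15 is a type I keratin of basal epithelial cells, and KRT6A (type II), KRT16 and KRT17 (both type I) are induced in wounded or proliferating epidermis. The type II genes of the list lie together on chromosome 12 and the type I genes on chromosome 17, with the exception of KRT18, which sits beside its partner KRT8 on chromosome 12.

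Reads counted on the genes of the table ranged from 19306864 to 34884841 per library, which is not the full sequencing depth. Of these reads the 10 keratins took 2.31% to 2.50% in MCF10A and 1.37% to 1.45% in DCIS.COM. HOTAIR itself followed the vectors, with 45 and 40 reads in the MCF10A empty-vector libraries against 4614 and 4827 with the HOTAIR vector, and 119 and 140 against 7166 and 6385 in DCIS.COM. Both lines carried epithelial transcripts. The mean EPCAM level with empty vector was 6.08 log2 CPM in MCF10A and 8.41 in DCIS.COM. CPM are read counts scaled to an effective library size, which differs from the plain read total, given here on a log2 scale. Of 10 markers of blood, endothelial and stromal cells, 8 were not among the genes of the table and the other 2, CD68 and PECAM1, summed to between 15.1 and 25.6 CPM. One library stood apart: the first DCIS.COM empty-vector library differed from the second by a median of 0.27 on the log2 scale over the keratins, against 0.058 to 0.083 in the other groups. It was the higher of the pair for 8 of the 10 keratins. As a share of reads, the 10 keratins together were at 1.43% in the first library and 1.37% in the second. By that share KRT8 was still higher in the first (0.323% against 0.268%), but KRT15 was lower (0.515% against 0.559%). The part of the scaling in this gap was not tested. The signal recognition particle RNAs RN7SL1 and RN7SL2 took 18.9% of the reads of that first library, against 11.1% to 15.0% elsewhere. Their part in the keratin values was not tested. In bulk RNA, fewer cells of a type and less RNA per cell cannot be told apart.

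The keratin make-up of the lines differed far more than that of the vectors. With empty vector, 5 of the 6 basal keratins were lower in DCIS.COM than in MCF10A, from 5.08-fold (KRT16) to 124-fold (KRT6A). The luminal keratins KRT8, KRT18 and KRT19 were 3.38-fold to 5.10-fold higher in DCIS.COM. A gene was called at an adjusted p under 0.05 (limma, Benjamini-Hochberg over all genes) and a fold change of at least 1.5. By that rule 3 of the 10 keratins were higher and 6 lower in DCIS.COM with empty vector, where 22.5% of all genes were called higher and 23.8% lower. Between the HOTAIR libraries, which share no sample with the first comparison, 4 were higher and 6 lower, where 22% and 21.7% of all genes were called. Both comparisons took the spread from the same fit of all 8 libraries, so their p-values are not independent. The median size of the log2 difference was 2.35 over the keratins and 0.54 over all genes with empty vector, and 2.23 against 0.50 with the HOTAIR vector. The plot of keratin levels by library shows the values behind these counts.

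**Figure D1:**
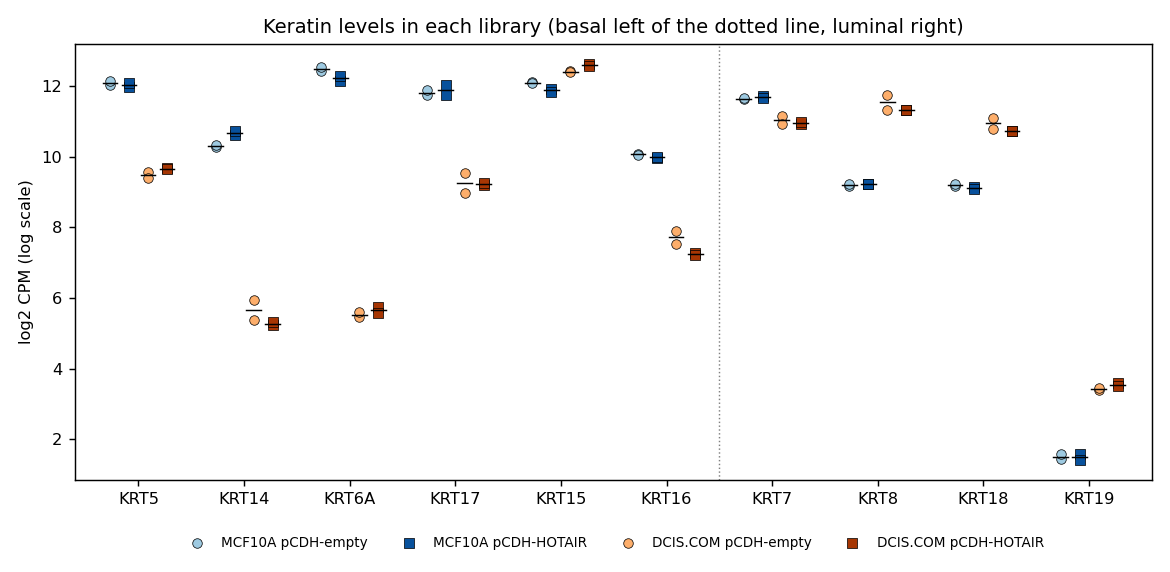
Level of each keratin in each library, in log2 CPM (a log scale), with 2 libraries per group and short bars at the group means. Light and dark blue are MCF10A with empty and HOTAIR vector, light and dark orange DCIS.COM. KRT6A falls from above 12 in MCF10A to below 6 in DCIS.COM, KRT15 stays near 12 in all 8 libraries, and KRT8 and KRT18 rise from about 9 to about 11.

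KRT5, the type II keratin of basal cells, was at 12.04 and 12.14 log2 CPM in the MCF10A empty-vector libraries and at 11.99 and 12.08 with HOTAIR. In DCIS.COM it was at 9.56 and 9.40 with empty vector and at 9.68 and 9.66 with HOTAIR. All 4 DCIS.COM libraries lay below all 4 MCF10A libraries, with a log2 difference of −2.61 (SE 0.085, 6.11-fold lower, adjusted p = 8.94e-08, limma) with empty vector and −2.36 (5.14-fold lower, adjusted p = 1.40e-07, limma) with HOTAIR.

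KRT14, the usual type I partner of KRT5, fell further. It was at 10.28 and 10.34 log2 CPM in MCF10A with empty vector and at 10.62 and 10.74 with HOTAIR, against 5.94 and 5.37 and then 5.23 and 5.32 in DCIS.COM. The log2 difference between the lines was −4.66 (SE 0.16, 25.2-fold lower, adjusted p = 1.09e-07, limma) with empty vector and −5.40 (42.3-fold lower, adjusted p = 5.82e-08, limma) with HOTAIR. The partners thus moved by unequal amounts: per kilobase of transcript, the log2 level of KRT5 exceeded that of KRT14 by 0.89 to 1.34 in the 4 MCF10A libraries and by 3.16 to 3.99 in the 4 DCIS.COM libraries. KRT14 shares 9.93% of its read-length (76-base) windows with other genes, chiefly KRT16 and its pseudogenes, so part of its reads, taken singly, could be assigned either way.

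KRT15, also a type I keratin of basal cells, did not follow KRT5 and KRT14. It was at 12.11 and 12.10 log2 CPM in MCF10A with empty vector, at 11.92 and 11.84 with HOTAIR, and at 12.43 and 12.39 and then 12.63 and 12.56 in DCIS.COM. It was thus higher in each DCIS.COM library than in any MCF10A library. The log2 difference was 0.31 (SE 0.089, 1.24-fold, adjusted p = 0.0146, limma) with empty vector, below the fold threshold, and 0.72 (1.64-fold, adjusted p = 1.68e-04, limma) with HOTAIR, where it was called. No 76-base window of its transcript occurs in another annotated gene.

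KRT17 was at 11.75 and 11.89 log2 CPM in MCF10A with empty vector and at 11.75 and 12.02 with HOTAIR. In DCIS.COM it was at 9.54 and 8.98 with empty vector and at 9.20 and 9.25 with HOTAIR, again with no overlap between the lines. KRT17 differed between them by −2.56 on the log2 scale (SE 0.17, 5.91-fold lower, adjusted p = 4.41e-06, limma) with empty vector and −2.66 (6.32-fold lower, adjusted p = 3.61e-06, limma) with HOTAIR.

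KRT16 was at 10.09 and 10.04 log2 CPM in MCF10A with empty vector and at 9.96 and 10.01 with HOTAIR, against 7.91 and 7.53 and then 7.27 and 7.21 in DCIS.COM. It was 5.08-fold lower with empty vector (log2 −2.35, SE 0.11, adjusted p = 6.15e-07, limma) and 6.70-fold lower with HOTAIR (log2 −2.74, adjusted p = 2.66e-07, limma). Both induced type I keratins therefore fell by an amount close to that of KRT5, and KRT14 and KRT6A by more.

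KRT6A showed the largest difference of the 10. Its reads numbered 172765 and 158428 in the MCF10A empty-vector libraries and 87654 and 100472 with HOTAIR. In DCIS.COM there were 1318 and 1311 reads with empty vector and 1899 and 1595 with HOTAIR. On the log2 CPM scale this was 12.14 to 12.54 in MCF10A and 5.46 to 5.74 in DCIS.COM. Between the lines KRT6A differed by −6.95 on that scale (SE 0.093, 124-fold lower, adjusted p = 2.63e-09, limma) with empty vector and −6.56 (94.5-fold lower, adjusted p = 5.16e-09, limma) with HOTAIR.

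KRT6A has near-identical copies, KRT6B and KRT6C, beside it on chromosome 12, so the 3 genes were set side by side. Their coding sequences are of equal length, 1695 bases, and 97.5% identical between KRT6A and KRT6B, 97.9% between KRT6A and KRT6C and 98.5% between KRT6B and KRT6C. The libraries were paired-end, but only single reads were considered here, not what a mate could settle. Of the 1620 coding windows of 76 bases, 343 (21.2%) are the same in all 3 genes, and a read from such a window cannot by itself be assigned to one of them. One of these is the start of the coding sequence, in exon 1 of each gene (GRCh37, minus strand, chr12:52886897-52886972 in KRT6A, chr12:52845787-52845862 in KRT6B and chr12:52867446-52867521 in KRT6C), printed 5′ to 3′ because it shows a read that fits all 3:
KRT6A, KRT6B and KRT6C: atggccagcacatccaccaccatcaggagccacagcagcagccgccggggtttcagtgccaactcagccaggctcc

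The window within 1 exon that sets KRT6A apart best lies in exon 2 (chr12:52885316-52885391 in KRT6A, chr12:52844200-52844275 in KRT6B and chr12:52865860-52865935 in KRT6C, minus strand). It holds 10 positions at which the genes differ, in capitals, and at 6 of them KRT6A differs from both copies. It is shown because it carries the kind of bases by which reads of the copies are told apart:
KRT6A: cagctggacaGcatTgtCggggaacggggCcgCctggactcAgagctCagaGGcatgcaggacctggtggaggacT
KRT6B: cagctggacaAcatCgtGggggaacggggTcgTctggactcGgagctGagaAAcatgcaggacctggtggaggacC
KRT6C: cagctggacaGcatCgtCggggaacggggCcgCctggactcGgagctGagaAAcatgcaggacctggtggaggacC

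The copies did not fall with KRT6A to the same extent. KRT6B was at 10.28 and 10.13 log2 CPM in MCF10A with empty vector and at 9.81 and 9.41 in DCIS.COM, a log2 difference of −0.60 (1.51-fold lower, adjusted p = 0.00341, limma). With HOTAIR its difference was −0.26 (adjusted p = 0.101, limma), which was not called. KRT6C was lower in DCIS.COM by 5.25-fold with empty vector (log2 −2.39, adjusted p = 4.59e-06, limma) and by 4.56-fold with HOTAIR (adjusted p = 7.99e-06, limma).

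As a result the leading KRT6 gene differed between the lines. KRT6A made up 74.3% to 75.1% of the summed CPM of the 3 genes in MCF10A and 3.95% to 5.71% in DCIS.COM, where KRT6B made up 79.2% to 81.2%. Because the handling of reads that fit several genes is not given in the sources used here, these shares depend on it to an unknown degree: 25.9% of the 76-base windows of the KRT6A transcript also occur in another gene, chiefly KRT6C. The sum of the 3 genes, an alternative chosen after the data were seen, does not depend on how such reads were divided among them. It still depends on whether they were counted at all, because windows found in other genes are 34.1% for KRT6B and 42.1% for KRT6C. The sum was lower in DCIS.COM by a log2 difference of −2.98 with empty vector and −2.69 with HOTAIR, close to the differences of KRT5, KRT16 and KRT17.

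**Figure D2:**
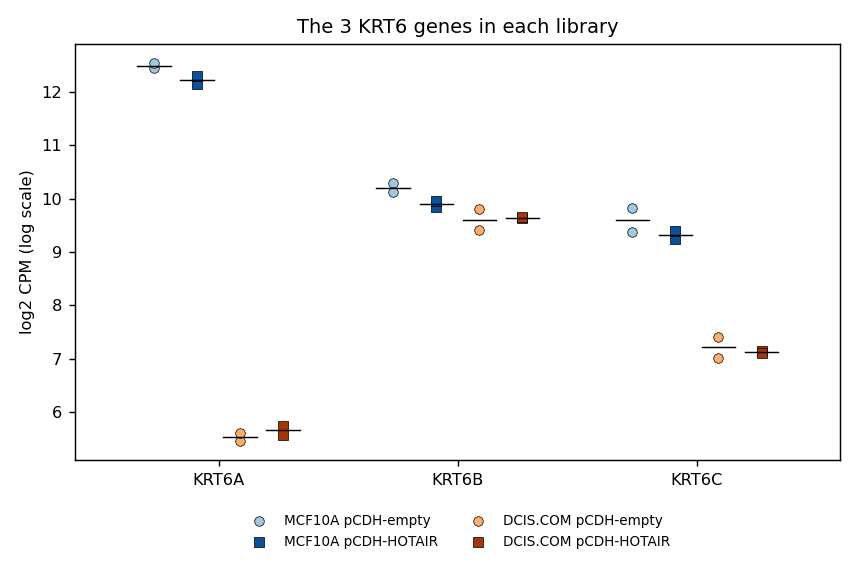
Level of KRT6A, KRT6B and KRT6C in each library, in log2 CPM (a log scale), with 2 libraries per group and short bars at the group means. KRT6A is the highest of the 3 in MCF10A (12.14 to 12.54) and the lowest in DCIS.COM (5.46 to 5.74), whereas KRT6B lies between 9.41 and 10.28 in all 8 libraries.

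Of the luminal keratins, KRT8 showed the largest difference. It was at 9.17 and 9.23 log2 CPM in MCF10A with empty vector and at 9.23 and 9.24 with HOTAIR. In DCIS.COM it was at 11.76 and 11.33 with empty vector and at 11.33 and 11.32 with HOTAIR, above every MCF10A library. The log2 difference was 2.35 (SE 0.13, 5.10-fold higher, adjusted p = 1.13e-06, limma) with empty vector and 2.09 (4.25-fold higher, adjusted p = 2.26e-06, limma) with HOTAIR. Processed pseudogenes make 18.2% of the KRT8 windows ambiguous for a single read.

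KRT18, the type I partner of KRT8, was at 9.16 and 9.22 log2 CPM in MCF10A with empty vector and at 9.14 and 9.08 with HOTAIR, against 11.09 and 10.80 and then 10.72 and 10.73 in DCIS.COM. It was 3.38-fold higher with empty vector (log2 1.76, SE 0.098, adjusted p = 1.49e-06, limma) and 3.07-fold higher with HOTAIR (log2 1.62, adjusted p = 2.41e-06, limma). The partners stayed near parity per kilobase: the log2 level of KRT8 minus that of KRT18 was −0.33 to −0.18 in MCF10A and 0.20 to 0.33 in DCIS.COM. The annotated ends of the 2 genes overlap on opposite strands, and the sources used here do not say whether strand was used in counting. Their canonical transcripts do not overlap (chr12:53290975-53298860 for KRT8 and chr12:53342902-53346690 for KRT18).

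KRT19 was scarce in both lines. It had 82 and 78 reads in MCF10A with empty vector and 57 and 52 with HOTAIR, against 316 and 290 and then 424 and 379 in DCIS.COM. The log2 difference was 1.91 (SE 0.12, 3.77-fold higher, adjusted p = 3.37e-06, limma) with empty vector and 2.04 (4.11-fold higher, adjusted p = 2.41e-06, limma) with HOTAIR. Even so it made up 0.014% to 0.017% of the 10 keratins in MCF10A and 0.082% to 0.10% in DCIS.COM, per kilobase. KRT19 (GRCh37, chr17:39679869-39684560) lies next to KRT15 (chr17:39669997-39678781) on the minus strand, so the scarcest and one of the most abundant keratins of the list are neighbours on the chromosome.

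KRT7 was the one luminal keratin that was lower in DCIS.COM. It was at 11.64 and 11.65 log2 CPM in MCF10A with empty vector and at 11.72 and 11.68 with HOTAIR, against 11.17 and 10.93 and then 10.94 and 10.98 in DCIS.COM. The log2 difference was −0.60 (SE 0.096, 1.52-fold lower, adjusted p = 6.99e-04, limma) with empty vector and −0.74 (1.67-fold lower, adjusted p = 2.10e-04, limma) with HOTAIR. The call with empty vector was at the fold threshold and was lost under median centring (−0.56), under quantile normalization (−0.54) and without the second DCIS.COM empty-vector library (−0.48), and the call with HOTAIR was lost under quantile normalization (−0.50). The KRT7 locus overlaps KRT7-AS and KRT87P on the opposite strand and KRT86 on its own, though the canonical transcripts of KRT7 and KRT86 do not overlap.

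**Figure D3:**
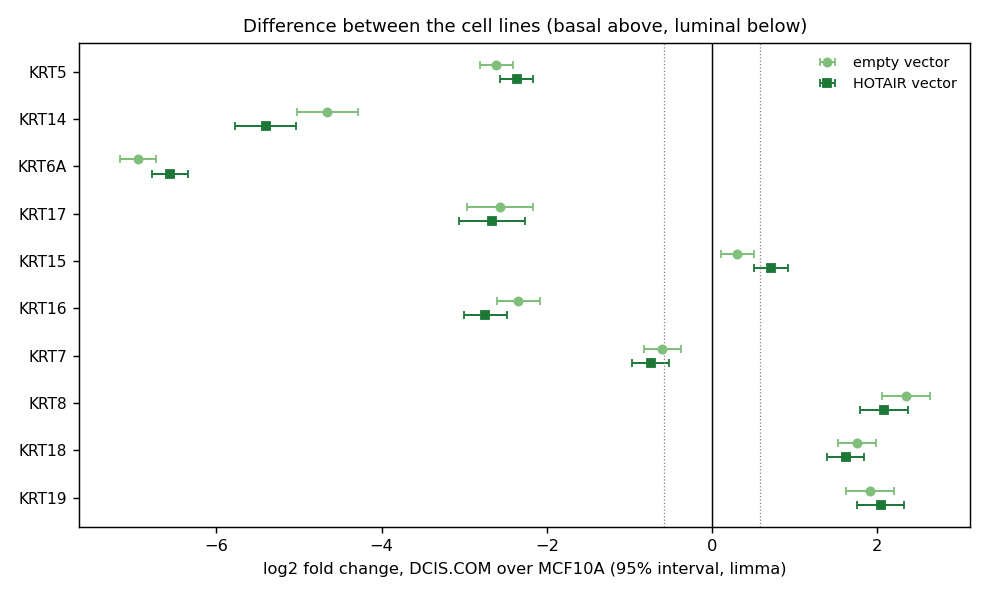
Log2 fold change of each keratin between the lines, DCIS.COM over MCF10A, with its 95% interval from limma, for the empty-vector libraries (light green circles) and the HOTAIR libraries (dark green squares). Dotted lines mark a 1.5-fold change. KRT6A and KRT14 lie farthest to the left, KRT8, KRT18 and KRT19 to the right, and KRT15 and KRT7 close to the dotted lines.

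Compared per kilobase of transcript, so that genes of unequal length can be set side by side, the order of the 10 keratins also differed. In MCF10A with empty vector KRT15, KRT6A and KRT17 led, and each neighbouring pair of these 3 overlapped between libraries. KRT7 and KRT5 followed and overlapped as well, and KRT14, KRT16, KRT18, KRT8 and KRT19 came in that order, each separate from the next. With HOTAIR the same genes led MCF10A, but KRT17 stood above KRT15, barely without overlap. The lowest KRT17 library was at 11.149 log2 CPM per kilobase and the highest KRT15 library at 11.144. KRT6A overlapped KRT7 in that group.

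In DCIS.COM KRT15 led with both vectors, followed by KRT8, KRT18 and KRT7 with empty vector and by KRT8, KRT7 and KRT18 with HOTAIR. With empty vector the neighbours among those 3 overlapped between libraries, as did KRT17 and KRT5, and with HOTAIR all neighbours were separate except KRT14 and KRT6A. KRT16, KRT14, KRT6A and KRT19 closed the order in that line.

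Summed over the list, the basal keratins gave 18485 to 20996 CPM in MCF10A and 6836 to 8009 CPM in DCIS.COM, and the luminal keratins 4346 to 4545 and 6226 to 7962 CPM. The log2 ratio of the basal to the luminal sum was 2.20, 2.25, 2.02 and 2.17 in the MCF10A libraries and −0.11, 0.11, 0.36 and 0.29 in the DCIS.COM libraries. Basal keratins thus outweighed luminal ones in MCF10A, while the sums were nearly level in DCIS.COM. Per kilobase the basal share was 77.8% to 80.2% in MCF10A and 46.4%, 50.1%, 54.5% and 53.3% in DCIS.COM.

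The basal share of DCIS.COM rested on 1 gene. KRT15 alone made up 35.2%, 40.0%, 43.9% and 42.5% of the 10 keratins per kilobase there, against 16.0% to 19.5% in MCF10A. KRT5 made up 14.2% to 14.5% in MCF10A and 3.68% to 4.36% in DCIS.COM, and KRT6A 15.4% to 18.7% and 0.21% to 0.27%. KRT15 and KRT7 had the highest CPM of their class over all 8 libraries together, though KRT6A was above KRT15 in MCF10A and KRT8 above KRT7 in DCIS.COM. Without KRT15 and KRT7, the mean log2 ratio of the basal to the luminal sum was −1.60 with empty vector and −1.37 with HOTAIR in DCIS.COM, and 3.77 and 3.74 in MCF10A.

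**Figure D4:**
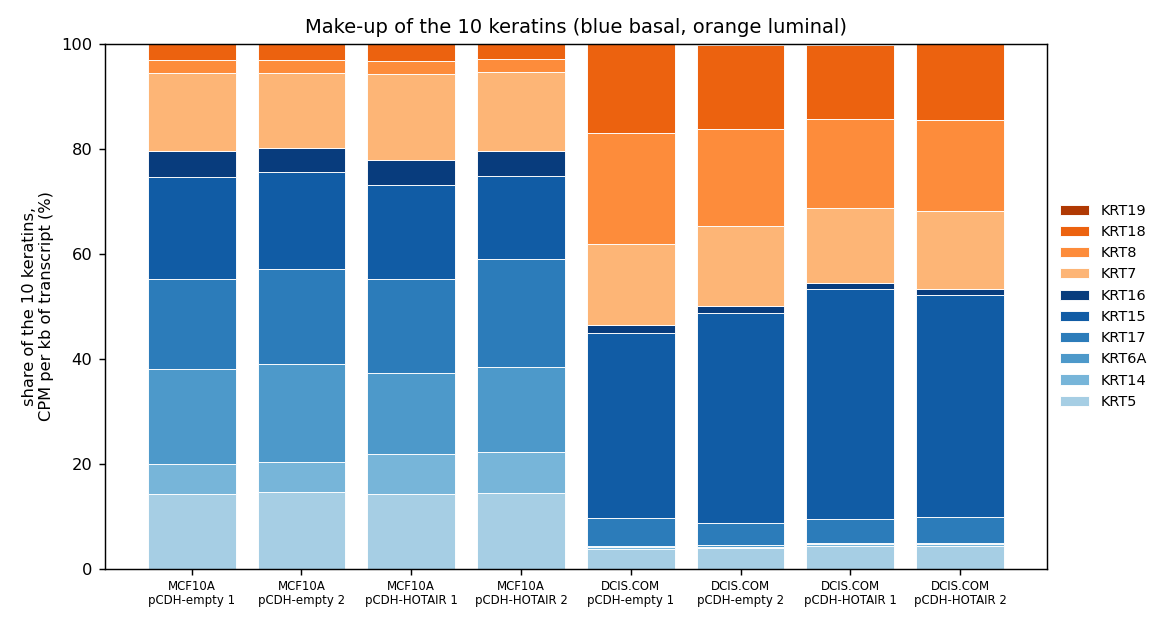
Share of each keratin among the 10, from CPM per kilobase of transcript (%), in each library, with basal keratins in blue and luminal ones in orange. The blue part covers 77.8% to 80.2% in MCF10A and 46.4% to 54.5% in DCIS.COM, where KRT15 makes up most of it.

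Because filaments pair type I with type II keratins, the summed levels of the classes were also compared, over the 24 keratins of the table. Type I minus type II, on the log2 scale per kilobase, was −0.42 to −0.40 in the 4 MCF10A libraries. In DCIS.COM it was 0.29, 0.47, 0.59 and 0.53. Type II transcripts were thus in excess in MCF10A and type I transcripts in DCIS.COM, where KRT15 (type I) stayed high and KRT5, KRT6A and KRT81 (type II) were low. Not every keratin moved that way: KRT17 (type I) was lower and KRT8 (type II) higher in DCIS.COM.

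None of the 10 keratins was called between the vectors. In MCF10A, 0 of 10 were called in either direction with limma, where 0.0218% of all genes were called higher and 0% lower. In DCIS.COM, 0 of 10 were called, where 0.0871% of all genes were called higher and 0% lower. With limma-voom on recovered reads the count was again 0 in each line. At an unadjusted p under 0.05 there were 2 of 10 in MCF10A and 2 of 10 in DCIS.COM, against 1003 and 2409 of all 13771 genes. The median size of the log2 difference over the keratins was 0.075 in MCF10A, against 0.090 over all genes, and 0.19 in DCIS.COM, against 0.15.

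In MCF10A the differences ran from −0.27 to 0.37 on the log2 scale. KRT14 was higher with HOTAIR in both libraries, by 0.37 (95% interval −0.0035 to 0.73, adjusted p = 0.693, limma). KRT6A differed by −0.27 (interval −0.48 to −0.053, adjusted p = 0.565, limma) and KRT15 by −0.22 (interval −0.43 to −0.018, adjusted p = 0.626, limma), each without overlap between the groups. The 4 luminal keratins differed by −0.085 (KRT18) to 0.053 (KRT7), and the interval of each excluded a 1.5-fold change.

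In DCIS.COM the largest difference was that of KRT16, which was at 7.91 and 7.53 log2 CPM with empty vector and at 7.27 and 7.21 with HOTAIR. This was −0.48 on the log2 scale (interval −0.74 to −0.22, adjusted p = 0.179, limma), and over the alternatives its adjusted p ranged from 3.32e-05 to 0.690. KRT14 differed by −0.38 (interval −0.75 to −0.011, adjusted p = 0.280, limma). KRT5 and KRT15 differed by 0.19 and 0.18, and KRT8 and KRT18 by −0.23 and −0.22, with adjusted p-values between 0.289 and 0.352 (limma). Under quantile normalization, which replaces each value by that of its rank, the KRT15 difference was 0.

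These DCIS.COM values depend on which empty-vector library is the reference. Without the first, KRT16 differed by −0.29, KRT14 by −0.093 and KRT8 by −0.014. Without the second, KRT16 and KRT14 differed by −0.67 each. Either way 1 library stands alone and is assumed to vary like the other groups.

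The HOTAIR effect was also compared between the lines. Again 0 of 10 keratins were called with limma, where 0.0363% of all genes were called higher in DCIS.COM and 0.00726% lower, and 4 of 10 (1452 of all genes) had an unadjusted p under 0.05. For KRT14 the effect was lower in DCIS.COM by a log2 difference of −0.75 (SE 0.23, adjusted p = 0.399, limma). For KRT15 it was higher by 0.41 (adjusted p = 0.411, limma), for KRT6A higher by 0.39 (adjusted p = 0.430, limma) and for KRT16 lower, at −0.40 (adjusted p = 0.458, limma). Without the first DCIS.COM empty-vector library the difference for KRT14 was −0.46, and over all libraries left out in turn it ranged from −1.03 to −0.46.

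**Figure D5:**
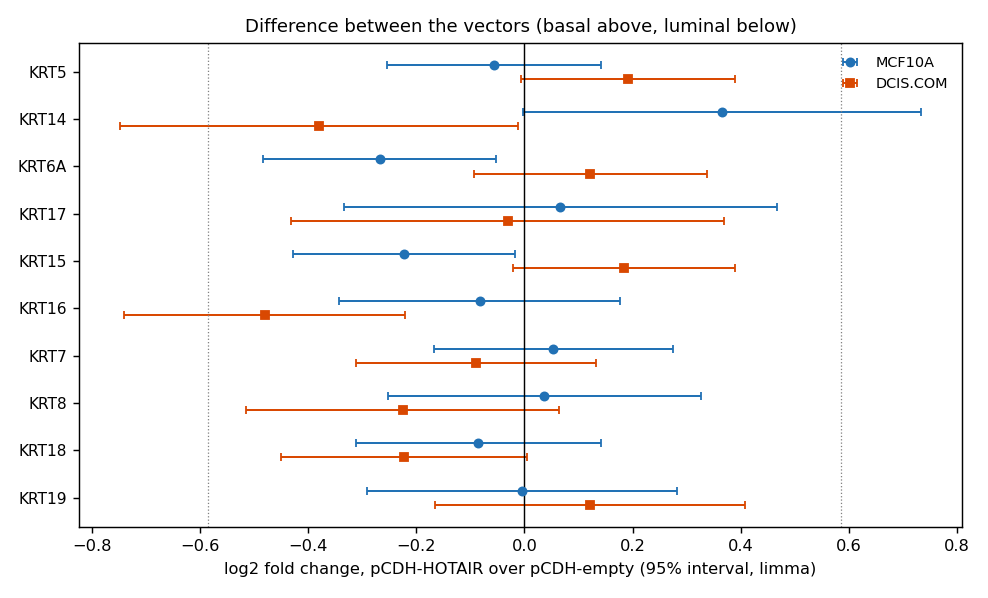
Log2 fold change of each keratin between the vectors, pCDH-HOTAIR over pCDH-empty, with its 95% interval from limma, in MCF10A (blue circles) and DCIS.COM (orange squares). Dotted lines mark a 1.5-fold change. All 20 estimates lie between −0.48 and 0.37, inside the dotted lines, and KRT14 lies on opposite sides of 0 in the 2 lines.

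Beyond the list, 14 of 45 other keratin genes were in the table. With empty vector 4 of the 14 were higher in DCIS.COM, 8 were lower and 2 were not called, where 22.5% of all genes were called higher and 23.8% lower. With HOTAIR the counts were 5, 6 and 3, where 22% and 21.7% of all genes were called. Between the vectors 0 of 14 were called in either line with limma, with 3 of 14 in MCF10A (1003 of all 13771 genes) and 4 of 14 in DCIS.COM (2409 of all genes) at an unadjusted p under 0.05.

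KRT23, a type I keratin, had 1, 5, 3 and 0 reads in the MCF10A libraries and 529 to 751 in the DCIS.COM libraries, so that its fitted log2 difference of 6.85 with empty vector rests on almost no reads in MCF10A. KRT222, a keratin-like gene on chromosome 17, ran the other way, with 103 to 221 reads in MCF10A and 0, 0, 1 and 0 in DCIS.COM. Against a floor of 3 reads per library it was at least 62.4-fold lower with empty vector. KRT4, a type II keratin of mucosal epithelia, was higher in DCIS.COM by 3.96 on the log2 scale (adjusted p = 9.56e-05, limma), from 1 to 8 reads in MCF10A to 92 to 149.

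The type II hair keratins were lower in DCIS.COM, and KRT81 was the most abundant of them. It was at 11.39 and 11.45 log2 CPM in MCF10A with empty vector and at 9.03 and 8.69 in DCIS.COM, a log2 difference of −2.56 (adjusted p = 3.74e-07, limma). KRT83 differed by −4.16 (adjusted p = 8.23e-07, limma) and KRT86 by −2.40 (adjusted p = 1.15e-05, limma), also with empty vector. KRT81 and KRT86 overlap on opposite strands, so their reads may not be separable. Between the vectors KRT83 had 722 and 894 reads in MCF10A with empty vector and 163 and 217 with HOTAIR, a log2 difference of −1.54 with an adjusted p of 0.122 (limma), which was not called.

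Of 11 measured genes that bind or link keratin filaments, 2 were higher in DCIS.COM with empty vector and 5 lower, where 22.5% and 23.8% of all genes were called. With HOTAIR 1 was higher and 5 lower, where 22% and 21.7% of all genes were called. Desmoplakin (DSP), which ties keratin filaments to desmosomes, was lower by a log2 difference of −1.75 (adjusted p = 1.78e-05, limma). The plakins plectin (PLEC) and epiplakin (EPPK1) differed by −0.93 (adjusted p = 8.50e-04, limma) and −3.18 (adjusted p = 2.69e-06, limma). The 2 that were higher were envoplakin (EVPL), by 0.80 (adjusted p = 1.22e-04, limma), and the chaperone gene HSPA8, by 0.73 (adjusted p = 2.99e-04, limma), and periplakin (PPL), at 0.27, was below the fold threshold.

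Other lineage markers were called in both directions. Of 10 measured basal or myoepithelial markers, 3 were higher and 6 lower in DCIS.COM with empty vector, with a median log2 difference of −1.29 over the 10. Of 10 measured luminal markers 6 were higher and 3 lower, with a median of 1.25. Of all genes 22.5% were called higher and 23.8% lower, with a median of −0.00012, and the difference between the lists was not tested. Summed CPM, which the most abundant markers weigh on most, ran opposite to these medians. With empty vector the basal markers summed to 2142 to 2265 CPM in MCF10A and 3068 to 3291 in DCIS.COM. The luminal markers summed to 2461 to 2513 CPM in MCF10A and 656 to 824 in DCIS.COM. TP63, the transcription factor of basal epithelium, was higher in DCIS.COM by 0.75 (adjusted p = 9.55e-04, limma). The contractile gene ACTA2 differed by −2.55 (adjusted p = 5.06e-07, limma). EPCAM was higher by 2.33 (adjusted p = 1.72e-07, limma), and the luminal mucin MUC1 differed by −5.74 (adjusted p = 9.57e-08, limma).

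The genes whose profiles lay nearest to those of the keratins were found by Euclidean distance of log2 CPM over the 8 libraries, each gene centred on its own mean, for the 7 keratins whose group means spanned at least 2 log2 units. PINK1 (0.16) and TIMP2 (0.20) lay nearest to KRT5, DUSP1 (0.29) and EMP3 (0.32) to KRT14, and GRB10 (0.21) and SUSD1 (0.24) to KRT17. MICB (0.32) and ERCC6 (0.35) lay nearest to KRT16. Those of KRT6A, ZNF85 (0.40) and DEFB4B (0.42), were at the lowest level of the table in at least 1 library. For KRT8 they were SHB (0.26) and SYNGR2 (0.26), and for KRT19 CUEDC1 (0.22) and ACBD7 (0.22). None of these nearest genes was a keratin.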

How the data were processed

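RNA-seq libraries (ScriptSeq v2, 76 nt paired-end) were aligned by the authors to hg19 with Rsubread and counted per gene with featureCounts, and the values were made with edgeR, per the study's methods and the submitters' processing notes; versions, strand setting and the handling of reads that fit several genes are not given in the sources used here. The deposited values are log2 CPM of 13771 genes, each above 0.5 CPM in at least 2 libraries. Whole reads were recovered from their equal steps. In every library 100% of values were whole within 0.1 read, which gave the reads quoted and their totals over these genes. Fold changes are on the log2 scale with the small prior the authors added (0.0717 CPM).

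Groups were compared with limma 3.58.1 (R 4.3.3, group means, mean-variance trend, all 8 libraries, Benjamini-Hochberg over all genes). The fit was also run on simulated libraries, for the vector comparison in MCF10A only. Those had a common mean profile, with no difference between the lines and no library standing apart, unlike the data. With 2 libraries in each of 2 groups, the smallest p of an exact two-sided permutation test is 0.333. A gene was called at an adjusted p under 0.05 and a 1.5-fold change, the difference between lines in the HOTAIR effect with no fold threshold. Alternatives were a pseudocount of 1, median centring, quantile normalization, a mean CPM of at least 2, no trend, the replicate block, limma-voom on recovered reads, a GC correction (loess), other fold thresholds, each library left out and, added after the data were seen, the summed KRT6 genes.

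Lengths, positions and sequences came from GENCODE release 44 on GRCh37 (canonical transcripts), matched for 12990 genes (94.3%). Named genes were the 10 keratins, HOTAIR, at most 6 other called keratins by size of change (KRT6B and KRT6C added as copies), listed filament partners and markers, and the 2 nearest profiles. The members and lists were chosen with earlier results of these data known.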

Additional observations from a re-analysis of the deposited data

How the results depend on the processing

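Of the 885 keratin differences recomputed under an alternative, 850 kept their direction and their side of the threshold. Many of them could not change direction, so this count overstates how steady the differences are. Another fold threshold, no trend or the replicate block leaves the log2 difference as it was. So does omitting a library from outside the groups compared. Between the lines, no keratin changed direction when a library was left out. The smallest differences, those of KRT15 and KRT7 with empty vector, ranged from 0.29 to 0.33 and from −0.72 to −0.48. Counts over all genes moved more. In MCF10A, 3 genes were called between the vectors, 6 with a pseudocount of 1, 5 with limma-voom, 13 with the GC correction (3 of them lower, against 0 before), 1 at 2-fold, and 1 to 51 with a library left out. In DCIS.COM, 12 genes were called, 6 without the trend, 47 with the GC correction (9 lower, against 0), 5 at 2-fold, and 1 to 1403 with a library left out. Between the lines 6370 genes (empty vector) and 6018 (HOTAIR) were called, and 3871 and 3667 at 2-fold. For the difference of the HOTAIR effect, 6 genes were called, 10 with a pseudocount of 1, 0 without the trend, 40 with the GC correction (19 lower, against 1), and 0 to 4414 with a library left out. The keratins called with a library left out numbered 0 to 2 for HOTAIR in DCIS.COM and 0 to 7 for that difference. For HOTAIR in DCIS.COM and for that difference, the upper ends came from leaving out the second DCIS.COM empty-vector library. This held for all genes and for the keratins. The first library, which stood apart, was then the only empty-vector reference in DCIS.COM. Leaving out any other library gave lower counts in these comparisons. Outside the leave-outs the cause of the moves in the counts was not tested.

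The groups share replicate numbers, but the deviations of same-numbered libraries correlated by −0.016 to 0.066, under 0.1 in every pair of groups, so the numbers were not taken to pair the libraries, although KRT75 was high in the second library of both MCF10A vectors. With the replicate block, 20 genes were called for HOTAIR in DCIS.COM and 0 for the difference of the HOTAIR effect, and no keratin call changed.

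Signs turned only for keratins with small differences between the vectors. Under quantile normalization KRT17 became −0.024 in MCF10A, 0.052 in DCIS.COM and 0.077 for the difference, and KRT7 −0.055 in MCF10A and 0.043 for the difference. Under the GC correction KRT17 became 0.0018 in DCIS.COM and KRT8 −0.0069 in MCF10A, and with limma-voom KRT19 became 0.0035 in MCF10A. With a library left out, KRT17 ranged from −0.071 to 0.20 in MCF10A, from −0.31 to 0.25 in DCIS.COM and from −0.38 to 0.18 for the difference. KRT7 ranged from −0.21 to 0.030 in DCIS.COM, KRT18 from −0.28 to 0.0085 for the difference and KRT19 from −0.091 to 0.082 in MCF10A.

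The mean log2 ratio of summed basal to luminal keratins was 1.99 and 1.89 per kilobase in MCF10A with empty and HOTAIR vector, and 0.22 in DCIS.COM with HOTAIR. Without KRT15 and KRT7 it was 3.77 and 3.74 in MCF10A and −1.60 and −1.37 in DCIS.COM.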

Other observations

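KRT75, a type II keratin of hair follicles, was singled out after its values were seen. It had 0 and 115 reads in the first and second MCF10A empty-vector libraries and 1 and 80 in the first and second HOTAIR libraries, against 2 to 5 in the DCIS.COM libraries. The second library of each MCF10A vector thus held nearly all of its reads, and no comparison of groups called it.

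The pseudogene KRT16P3, which shares read-length windows with KRT16, was also read after its values were seen. It had 795 and 704 reads in MCF10A with empty vector and 484 and 567 with HOTAIR, against 282 and 134 and then 143 and 99 in DCIS.COM. KRT16 itself had 4961 to 33994 reads in the same libraries, so the pseudogene held few reads beside its parent.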
